A study of Mus musculus with 6 samples.

Results

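The expression of 10 cell-cycle genes was examined in stromal cells of the mouse omentum, a fold of abdominal fat that holds lymphoid aggregates called milky spots. The genes, *Mki67*, *Top2a*, *Ccnb1*, *Ccna2*, *Cdk1*, *Birc5*, *Mcm2*, *Pcna*, *Ccnd1* and *Cdkn1a*, were chosen by name as common readouts of cycling cells. Earlier results of these data were known when the genes were chosen. All 10 were found among 23352 gene symbols. RNA-seq had been performed on 6 cell populations sorted from omenta of WT C57BL/6 mice, for which no treatment is named, with 1 library for each population. The gates, as drawn in the study's flow cytometry plots, started from non-hematopoietic (CD45-) cells and used CD140a, a fibroblast surface receptor encoded by *Pdgfra*, CD105, the TGF-beta coreceptor encoded by *Eng*, and aldehyde dehydrogenase (ALDH) activity. P1, P2 and P3 were CD140a+ CD105+ cells with high, intermediate and low ALDH activity. P4 and P5 were CD140a+ CD105- cells with intermediate and low ALDH activity, and P6 were cells with low CD140a. The age and sex of the mice and the number pooled in a library are not given in the sources used here.

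Cells divide through an ordered series of phases, in which G1 leads to DNA replication in S phase, then to G2 and to mitosis. D-type cyclins drive entry into the cycle in G1, CDK inhibitors oppose it, replication genes are transcribed around the start of S phase, and the genes of mitosis are transcribed together in G2. In an adult tissue at rest most fibroblasts and mesothelial cells are outside the cycle. In a bulk library, fewer cells of a type and less RNA per cell cannot be told apart, and a level in FPKM (fragments per kilobase of transcript and per M reads, so that levels can be compared between genes) is not a share of cycling cells.

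Many genes of mitosis share promoter elements, and the promoters of 4 mitotic genes are shown here to let these elements be seen beside the levels that follow. The promoter of *Birc5*, which held none of the elements searched, is not printed, and none was found for *Ccna2*. Sequences are from RefSeq (GRCm38.p6), cover the 150 bases before the RefSeq start, and are written 5′ to 3′ on the strand of the gene. For *Ccnb1* and *Cdk1* that start lies inside the GENCODE M21 gene given below, so part of the printed sequence does too. Capitals mark the cell-cycle homology region (CHR, TTTGAA or TTCGAA), the CCAAT box (CCAAT) and the E2F element (TTTCCCGC, TTTGGCGC, TTTCGCGC or TTTGCCGC), each searched on both strands. TTCGAA reads the same on both and was counted once, and where matches of different elements met, each was counted.
Mki67, chr7:135716380-135716529, minus strand: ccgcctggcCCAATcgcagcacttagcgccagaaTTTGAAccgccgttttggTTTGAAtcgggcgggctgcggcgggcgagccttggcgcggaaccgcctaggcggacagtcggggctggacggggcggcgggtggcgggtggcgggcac
Top2a, chr11:99024190-99024339, minus strand: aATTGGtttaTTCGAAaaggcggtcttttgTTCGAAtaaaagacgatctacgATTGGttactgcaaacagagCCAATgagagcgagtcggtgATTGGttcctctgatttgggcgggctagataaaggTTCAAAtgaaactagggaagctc
Cdk1, chr10:69352913-69353062, minus strand: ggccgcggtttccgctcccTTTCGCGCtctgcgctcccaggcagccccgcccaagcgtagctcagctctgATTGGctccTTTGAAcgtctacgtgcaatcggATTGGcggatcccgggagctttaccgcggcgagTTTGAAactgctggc
Ccnb1, chr13:100786487-100786636, minus strand: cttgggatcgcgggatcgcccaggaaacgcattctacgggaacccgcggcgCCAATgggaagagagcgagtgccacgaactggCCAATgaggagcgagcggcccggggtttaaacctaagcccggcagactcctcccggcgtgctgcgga

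In GENCODE M21 (GRCm38) the genes on the plus strand are *Birc5* at chr11:117849251-117855743 and *Cdkn1a* at chr17:29090976-29100727. The others are on the minus strand, *Mki67* at chr7:135689784-135716361, *Top2a* at chr11:98992943-99024189, *Ccnb1* at chr13:100778650-100786570, *Ccna2* at chr3:36564865-36572150, *Cdk1* at chr10:69335146-69352938, *Mcm2* at chr6:88883474-88898780, *Pcna* at chr2:132249162-132253314 and *Ccnd1* at chr7:144929931-144939925. A promoter was found for 8 of the 10 genes, all but *Ccna2* and *Ccnd1*. Over the 300 bases from 250 before to 50 after the start, *Top2a* held 4 CHR and 6 CCAAT matches, *Mki67* 2 and 3, and *Cdk1* 2 and 3 with 1 E2F match, while *Ccnb1* held 2 CCAAT matches and no CHR match. *Mcm2* held 1 CHR and 1 CCAAT match, *Pcna* held 1 CCAAT match, and *Birc5* had no match of these letters. Among all 32851 promoters of this length, 19.2% held a CHR match, 37.4% a CCAAT match and 2.26% an E2F match. In a list of 50 other genes of G2 and mitosis, 41 of which had a promoter, 34 of 44 promoters (77.3%) held a CHR match and 34 (77.3%) a CCAAT match, and 1 (2.27%) an E2F match. In a list of 50 other genes of DNA replication and S phase, 40 of which had a promoter, 27 of 49 promoters (55.1%) held a CCAAT match, 18 (36.7%) an E2F match and 11 (22.4%) a CHR match. A match is a description of the sequence and does not show that a factor binds there. The upstream start of *Cdkn1a* was the only promoter among those of the 8 genes with a p53-like palindrome, the block ACATGT followed after 4 bases of any kind by ACATGT again, a motif chosen after the sequences were seen, which was held by 4 of all promoters (0.0122%) and by 0 of 29 promoters of other p53 target genes. It is shown because *Cdkn1a* is a classic target of p53, and capitals mark the palindrome.
Cdkn1a, chr17:29090829-29090978, plus strand: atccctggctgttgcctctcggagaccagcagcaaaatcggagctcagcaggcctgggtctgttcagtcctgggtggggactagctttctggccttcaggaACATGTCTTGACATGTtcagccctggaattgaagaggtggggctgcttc

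Libraries were of similar depth, estimated from the FPKM values at 53.4 to 61.7 M reads for P1 to P5, and shallower, at 36.9 M reads, for P6. The sorted identities were compared with genes of the gates. *Pdgfra* was 117 to 154 FPKM in P1 to P5 and 5.36 in P6, and *Eng* was 42.6 to 52.4 FPKM in P1 to P3 and at most 0.728 in P4 to P6. *Aldh1a2*, which encodes a retinaldehyde dehydrogenase, was 469, 78.8 and 134 FPKM in P1 to P3, 285 and 145 in P4 and P5, and 209 in P6, so it was lower in P2, gated as intermediate in ALDH activity, than in P3, gated as low. That gate reads enzyme activity and not RNA. The fibroblast gene *Dcn*, which encodes decorin, was 4350 to 5871 FPKM in all 6 libraries. Other fibroblast genes were mixed in P6. *Dpt* was low there, at 8.70 FPKM against 264 to 1634 in P1 to P5, as was *Lum*, at 6.19 against 56.4 to 345. *Col1a1* was highest in P6, at 1735 FPKM against 670 to 1618, as was *Pdpn*, at 125 against 78.8 to 120. *Col1a2* (1153 FPKM) and *Col3a1* (2926 FPKM) in P6 lay within the range of the other libraries. P6 further carried transcripts of mesothelial cells, the epithelial lining of the peritoneum, with *Upk3b* at 1139.8 FPKM and *Msln* at 171, and *Upk3b* was also 383 in P4 and 289 in P5 against 6.78 to 22.7 in P1 to P3. Transcripts of pancreatic acinar cells, which are not omental cells, were present in several libraries: the summed level of 15 acinar genes was highest in P6 (1989.7 FPKM) and P4 (1369.6 FPKM) and lowest in P1 (4.63 FPKM), with P2 at 256, P5 at 163 and P3 at 26.7. Immediate-early genes, which rise within minutes of stress and cell dissociation, were high throughout, with *Fos* at 1761 to 2317 FPKM.

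Mitotic genes were low but detected in every population and were highest in P6 and P4. *Mki67*, which encodes the Ki-67 protein that coats mitotic chromosomes, was 1.56, 1.53 and 1.19 FPKM in P1 to P3, 4.34 and 1.78 in P4 and P5, and 6.84 in P6. P4 and P6 stood above the other populations, which lay within 1.19 to 1.78. The level in P6 was 5.75 times that in P3, the lowest (95% interval for counting error alone, 5.29 to 6.25). *Top2a*, the topoisomerase that untangles sister chromatids, was 3.16, 2.93 and 1.99 FPKM in P1 to P3, 7.80 and 2.62 in P4 and P5, and 10.2 in P6. The order at the top was the same, and P6 was 5.13 times P3 (4.69 to 5.63).

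*Ccna2*, the cyclin A that acts in S and G2, was 2.58, 2.73 and 2.25 FPKM in P1 to P3, 5.86 and 2.73 in P4 and P5, and 7.99 in P6. Its P6 level was 3.55 times that in P3 (3.05 to 4.13). *Ccna2* overlaps *Exosc9* on the other strand, and the strand of counting was not stated. *Exosc9* ranged from 9.36 FPKM in P2 to 12.8 in P5 and was 11.2 in P4, and whether the genes share reads was not tested. *Cdk1*, the kinase that drives entry into mitosis, was 1.22, 1.34 and 1.38 FPKM in P1 to P3, 4.03 and 2.09 in P4 and P5, and 4.80 in P6. P5 lay between the CD105+ populations and P4 for this gene, and P6 was 3.94 times P1 (2.99 to 5.20).

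*Ccnb1*, the cyclin B partner of the CDK1 kinase, was 1.44, 1.41 and 0.631 FPKM in P1 to P3, 5.25 and 0.925 in P4 and P5, and 4.31 in P6. It was the only one of the 6 mitotic genes that was higher in P4 than in P6, by 1.22 times (1.01 to 1.48), and it had the widest range of the 10 genes, with P4 at 8.32 times P3 (5.93 to 11.7). A processed pseudogene, *Ccnb1-ps*, could share its reads. *Birc5*, which encodes survivin, a subunit of the chromosomal passenger complex, was 1.90, 0.977 and 1.01 FPKM in P1 to P3, 4.70 and 1.01 in P4 and P5, and 5.59 in P6. P2, P3 and P5 lay within 0.977 to 1.01 for *Birc5*, and P1 stood 1.95 times above P2 (1.35 to 2.81), which reached the 2-fold rule used here only after median-of-ratios scaling (2.02).

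The geometric mean of these 6 genes was 1.88, 1.69 and 1.30 FPKM in P1 to P3, 5.21 and 1.72 in P4 and P5, and 6.35 in P6. P6 exceeded P4 by 1.22 times (1.15 to 1.30), and P4 exceeded P1, the next in order, by 2.77 times (2.56 to 3.01). The neighbours P1 and P5 differed by 1.09 times (0.986 to 1.21) and P5 and P2 by 1.02 times (0.914 to 1.13), both within counting error. P3 was lowest, with P2 at 1.30 times its level (1.16 to 1.45). Across the 6 populations, Pearson's r of log2(FPKM + 0.1) between pairs of these genes was 0.841 to 0.997 (median, 0.938; 15 pairs), a description over 6 points that share their libraries.

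**Figure D1:**
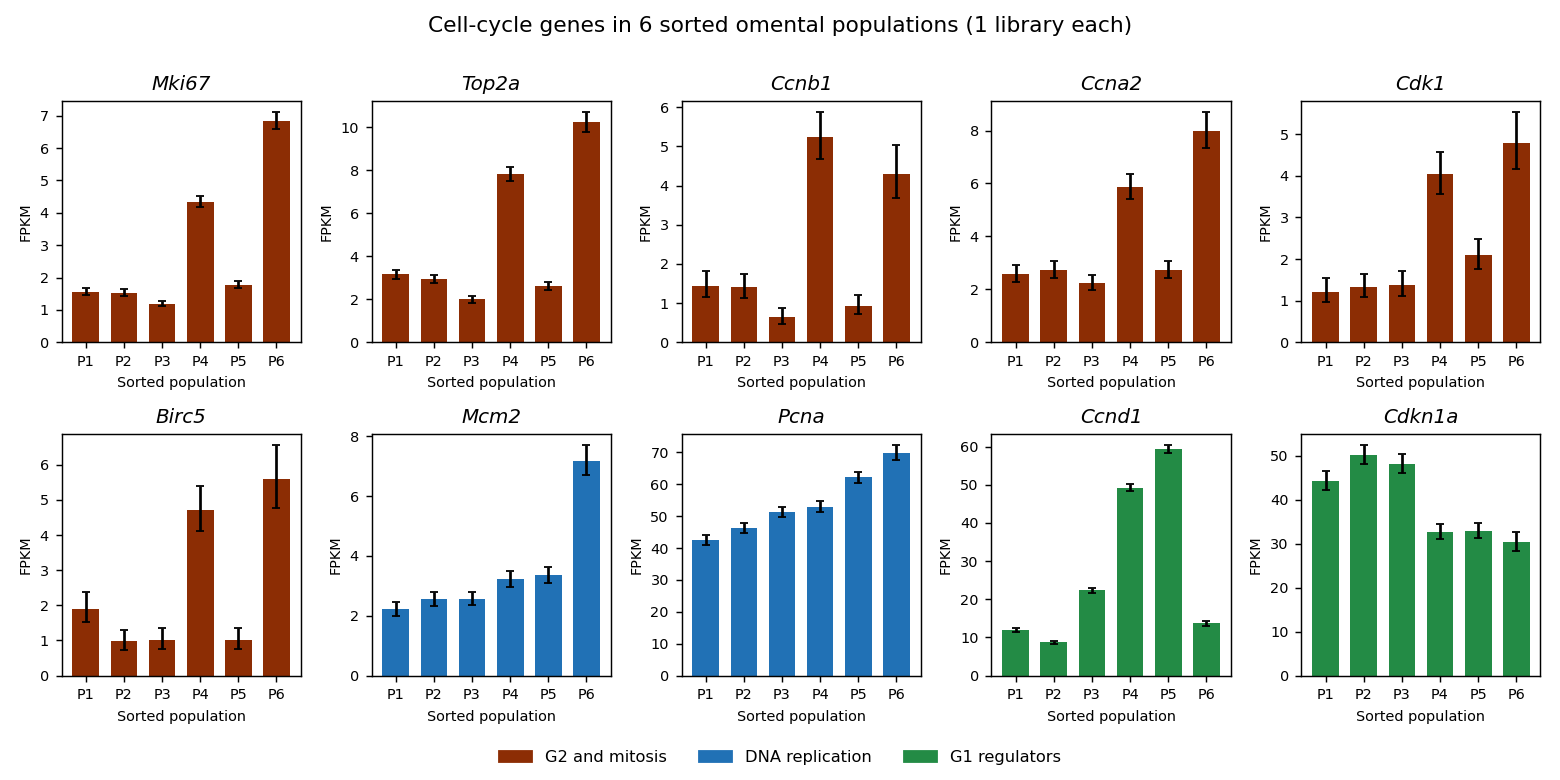
FPKM of the 10 genes (y axis, linear, from 0) in P1 to P6 (x axis), with 1 library per bar and error bars for the 95% interval of counting error. The 6 mitotic genes stand high in P4 and P6 (*Mki67*, 4.34 and 6.84), *Mcm2* stands high in P6 alone (7.19), and *Ccnd1* is highest in P5 (59.3) and P4 (49.2).

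The replication genes did not follow that order. *Mcm2*, a subunit of the helicase that opens DNA at origins, was 2.22, 2.55 and 2.57 FPKM in P1 to P3, 3.22 and 3.36 in P4 and P5, and 7.19 in P6. P6 stood apart, at 2.14 times P5 (1.93 to 2.37), and P4 was 0.958 of P5 (0.858 to 1.07), within counting error. *Pcna*, the sliding clamp of DNA polymerases, was 42.6, 46.3 and 51.3 FPKM in P1 to P3, 52.98 and 62.1 in P4 and P5, and 69.8 in P6. *Pcna* was thus more abundant than each of the 6 mitotic genes above in every library and varied least of the 10 genes, by 1.64 times between P6 and P1 (1.56 to 1.72). *Pcna-ps1* and *Pcna-ps2*, both processed pseudogenes, could share its reads. The higher *Pcna* and *Mcm2* in P4 than in P2, and in P5 than in P3, turned into a lower level when libraries were scaled to *Gapdh* (*Pcna* P2 over P4, 1.21, and *Mcm2* P2 over P4, 1.10).

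The regulators of G1 showed other patterns. *Ccnd1*, which encodes cyclin D1, the growth factor-responsive partner of CDK4 and CDK6, was 11.9, 8.78 and 22.4 FPKM in P1 to P3, 49.2 and 59.3 in P4 and P5, and 13.7 in P6. The CD105- CD140a+ populations P4 and P5 were highest and P2 lowest, with P5 at 6.75 times P2 (6.44 to 7.08), and P6, where most mitotic genes peaked, was low. *Ccnd1* overlaps the gene *Oraov1* (*LTO1*) on the other strand, and *Oraov1* was 5.45, 5.56 and 6.94 FPKM in P1 to P3, 8.41 and 9.08 in P4 and P5, and 10.47 in P6. Both genes rose from P2 through P3 and P4 to P5, while *Oraov1* was lowest in P1 and highest in P6, unlike *Ccnd1*. Whether they share reads was not tested. *Cdkn1a*, which encodes the CDK inhibitor p21, was 44.3, 50.2 and 48.2 FPKM in P1 to P3, 32.7 and 32.9 in P4 and P5, and 30.4 in P6. Each CD105+ population was above each of the others, but by at most 1.65 times (P2 over P6, 1.52 to 1.79), and P4 and P5 did not differ beyond counting error (0.992, 0.922 to 1.07).

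With 1 library per population no comparison had a replicate check, and no p-value was computed. A gene was called higher or lower where the FPKM of one side was at least 2 times the other and at least 0.5 on the higher side, and the calls of the members were read against those of all genes that reached 0.5 FPKM on either side.

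Between ALDH high and intermediate cells of the CD105+ gate (P1 against P2) no cell-cycle gene was called. Among all genes, 1.19% were called higher and 5.46% lower in P1. *Birc5* came nearest, as given above, and *Mki67* differed by 1.02 times (0.927 to 1.12). Between P2 and P3, ALDH intermediate and low in the same gate, *Ccnb1* was higher in P2 by 2.23 times (1.52 to 3.28), against 1.61% of all genes higher. *Ccnd1* was lower in P2, with P3 at 2.55 times its level (2.42 to 2.69), against 3.39% of all genes lower.

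Between ALDH intermediate and low cells of the CD105- gate (P4 against P5), 5 of the 10 genes were higher in P4 and none was lower, against 4.75% of all genes higher and 1.88% lower. *Ccnb1* was 5.67 times higher (4.27 to 7.54), *Birc5* 4.67 times (3.39 to 6.41), *Top2a* 2.98 times (2.75 to 3.23), *Mki67* 2.44 times (2.27 to 2.62) and *Ccna2* 2.15 times (1.87 to 2.47). *Cdk1*, the other mitotic gene, was 1.93 times higher (1.56 to 2.38) and passed the rule only after scaling to *Gapdh* (2.08). The G1 and replication genes were outside the calls, with *Pcna* at 0.853 (0.818 to 0.888) and *Ccnd1* at 0.830 (0.809 to 0.852). The ratio of ALDH intermediate to low was larger in CD105- than in CD105+ cells for all 6 mitotic genes, by 1.77 times for *Ccna2* (1.42 to 2.20) to 4.81 times for *Birc5* (2.86 to 8.09), with intervals that cover counting error only. For *Ccnd1*, which was lower in ALDH intermediate cells of both gates, the ratios differed by 2.11 times (1.99 to 2.24). For *Mcm2* (0.963, 0.815 to 1.14) and *Cdkn1a* (0.953, 0.867 to 1.05) that difference lay within counting error.

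**Figure D2:**
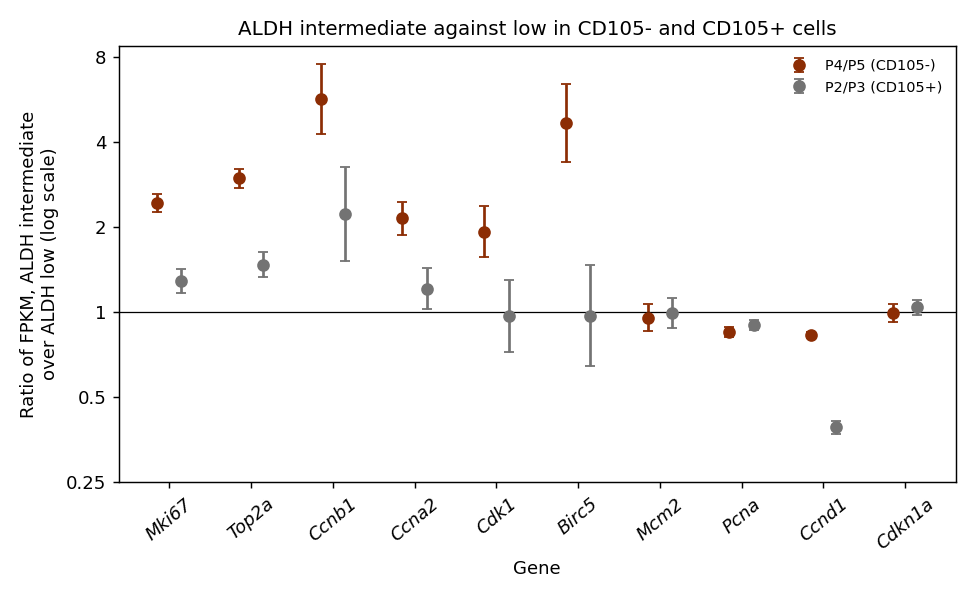
Ratio of FPKM in ALDH intermediate over ALDH low cells (y axis, log scale) for each of the 10 genes (x axis), in CD105- cells (P4/P5) and CD105+ cells (P2/P3), with bars for the 95% interval of counting error and 1 library per population. *Ccnb1* (5.67) and *Birc5* (4.67) have the highest P4/P5 ratios, while *Mcm2* (0.958) and *Cdkn1a* (0.992) lie at 1.

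Between CD105+ and CD105- cells at matched ALDH activity, more of the 10 genes were called at intermediate than at low activity. At intermediate ALDH (P2 against P4), 7 of the 10 genes were lower in P2, against 8.50% of all genes lower and 6.04% higher. These were the 6 mitotic genes and *Ccnd1*, with P4 over P2 at 4.81 for *Birc5* (3.49 to 6.64), 3.73 for *Ccnb1* (2.93 to 4.74), 2.83 for *Mki67* (2.63 to 3.05) and 5.61 for *Ccnd1* (5.34 to 5.89). After scaling to *Gapdh*, which was 218 FPKM in P2 and 302 in P4, *Top2a* (P2 over P4, 0.522) and *Ccna2* (0.647) no longer passed the rule and *Cdkn1a* did (2.13). This comparison and P4 against P5 share the P4 library and are not independent. At low ALDH (P3 against P5), only *Ccnd1* was called, lower in P3, with P5 at 2.65 times its level (2.57 to 2.74), against 6.79% of all genes lower and 8.65% higher. It lost the call after scaling to *Gapdh* (P3 over P5, 0.549), under which *Cdkn1a* was called higher in P3 (2.13). *Mki67* in P5 was 1.49 times that in P3 (1.36 to 1.64), and for *Birc5* that ratio was 1.001 (0.666 to 1.51).

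P6 was compared with the mean of P1 to P5. Of the 10 genes, 7 were higher and 1 was lower, against 13.8% of all genes higher and 10.3% lower. The 6 mitotic genes were 2.23 times (*Ccnb1*, 1.87 to 2.66) to 3.29 times (*Mki67*, 3.14 to 3.45) higher, and *Mcm2* was 2.58 times higher (2.39 to 2.79). *Ccnd1* was lower, with the mean of the others at 2.21 times P6 (2.11 to 2.32). Without P4 in the mean the same 7 genes were called, with larger ratios for the mitotic genes (*Mki67*, 4.52; *Birc5*, 4.57), while *Ccnd1* no longer was (0.536, 0.511 to 0.563).

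Other genes of mitosis were also higher in P4 and P6. Of 50 other G2 and mitosis genes, 48 reached 0.5 FPKM in P4 or P5. Of these, 36 were higher in P4 and none lower, against 4.75% of all genes higher and 1.88% lower. Their median log2 ratio was 1.28 against -0.03 for all genes. In P2 against P4, 36 of 48 were lower in P2 (median, -1.29 against -0.08 for all genes), where 8.50% of all genes were lower. In P6 against the mean of the others, 34 of 50 were higher (1.18 against 0.09), where 13.8% of all genes were higher. Without P4 in the mean, 41 of 50 were higher (1.61). In P3 against P5, none of 38 was called (-0.25 against -0.08), where 8.65% of all genes were higher and 6.79% lower. In P1 against P2, none of 42 was called (0.08 against -0.06), where 1.19% of all genes were higher and 5.46% lower. In P2 against P3 the only call among 40 was *Ube2c*, higher in P2, against 1.61% of all genes higher. The median of this list in P3 against P5 turned to 0.27 after scaling to *Gapdh*.

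Among the named genes of this list, *Cenpf*, a kinetochore protein, was 0.467, 0.464 and 0.342 FPKM in P1 to P3, 1.73 and 0.471 in P4 and P5, and 3.48 in P6. *Ube2c*, the ubiquitin-conjugating enzyme that works with the anaphase-promoting complex, was 3.37, 2.93, 1.38, 9.90, 2.48 and 7.86 FPKM from P1 to P6, so like *Ccnb1*, which encodes one of the proteins that complex marks for destruction, it was highest in P4. *Stmn1*, the microtubule-destabilizing protein stathmin, was 12.4, 12.1, 10.97, 36.5, 17.1 and 85.5 FPKM, with P6 far above P4. Other members were abundant and flatter: *Pttg1*, which encodes securin, was 32.3 to 36.0 FPKM in P1 to P5 and 44.7 in P6, and *Smc4*, a condensin subunit, was 12.3 to 28.9 FPKM with P6 highest.

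DNA replication and S phase genes differed less between P4 and P5 than the mitosis genes did. P4 and P6 were each set against other populations, and this list was not compared between them directly. In P4 against P5, 1 of 42 was higher, *Rrm2*, and none was lower (median log2 ratio, 0.10 against -0.03 for all genes). Of all genes, 4.75% were higher and 1.88% lower there. In P6 against the mean of the others, 17 of 47 were higher and 2, *Gins1* and *E2f1*, were lower (0.74 against 0.09 for all genes). Of all genes, 13.8% were higher and 10.3% lower in P6. In P2 against P4, 3 of 43 were lower in P2, *Cdc6*, *Gmnn* and *Chaf1b*, and none was higher (-0.37 against -0.08 for all genes). The shares of all genes were 8.50% lower and 6.04% higher. In P3 against P5, *Gmnn* and *Chaf1b* of 42 were lower in P3, against 6.79% of all genes lower. No gene of 41 was called in P1 against P2 or in P2 against P3. *Rrm2*, the regulated subunit of ribonucleotide reductase, was 1.44, 1.46 and 1.21 FPKM in P1 to P3, 2.74 and 1.14 in P4 and P5, and 6.62 in P6, while *Rrm1*, the large subunit, was 5.601, 8.54, 8.29, 14.5, 13.2 and 19.3 FPKM. *E2f1*, an activating transcription factor of S phase genes, ran the other way, at 6.20, 5.03, 3.63, 3.56, 2.01 and 1.11 FPKM from P1 to P6. *Ung*, a uracil-DNA glycosylase, was 0.230 to 0.462 FPKM in P1 to P5 and 1.25 in P6. *Mcm6*, another helicase subunit, was 11.4 to 18.3 FPKM, and *Slbp*, which binds histone mRNA, 19.2 to 25.5 FPKM.

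**Figure D3:**
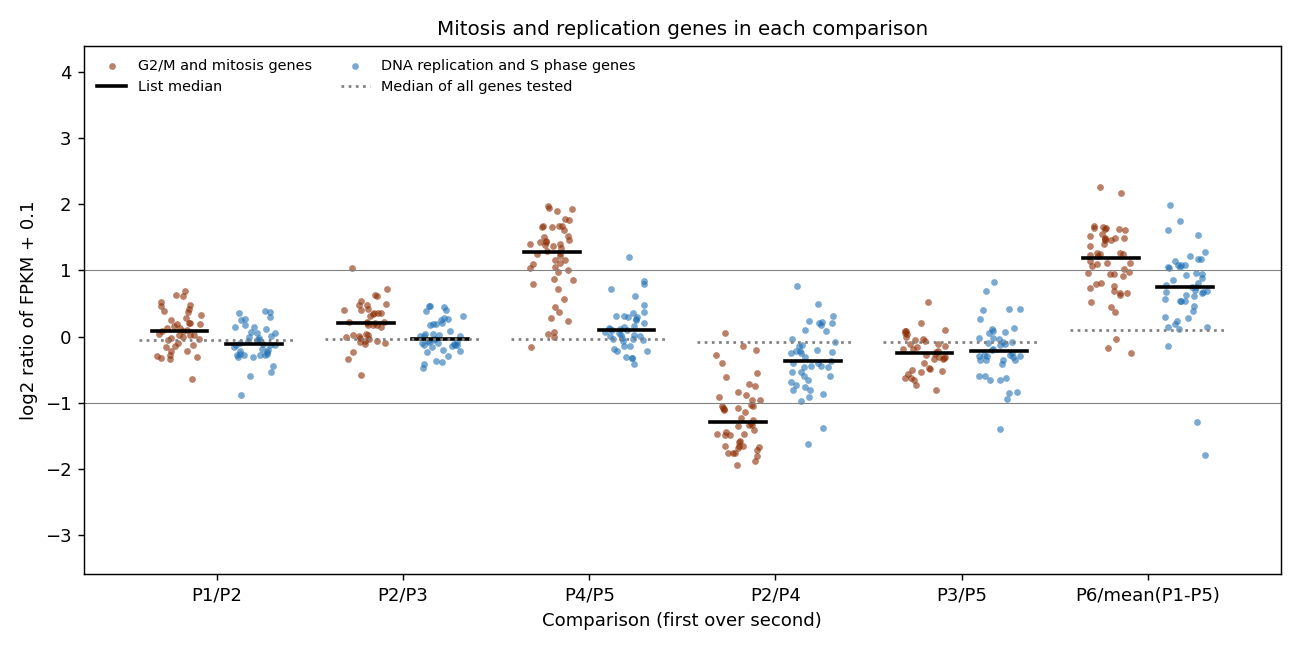
log2 ratio of FPKM + 0.1 (y axis) of each G2 and mitosis gene and each DNA replication and S phase gene that reached 0.5 FPKM, in 6 comparisons (x axis, first population over second), with bars at the list medians, dotted lines at the median of all genes and grey lines at a 2-fold ratio. Mitosis genes are shifted up in P4/P5 (median, 1.28) where replication genes are not (0.10), and both are shifted up in P6 (1.18 and 0.74).

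Of the cyclin D, CDK and pocket protein list, none of 24 genes was called in P1 against P2, P2 against P3 or P4 against P5. In P2 against P4, 2 of 24 were lower (all genes, 8.50%), in P3 against P5, 1 was higher and 2 were lower (8.65% and 6.79%), and in P6, 3 were lower (10.3%). *Cdk6* and *Tfdp2*, which encode a cyclin D-dependent kinase and a dimer partner of E2F factors, were called lower in the CD105+ population in P2 against P4 and in P3 against P5, and *Myc* was called higher in P3 than in P5. *Cdk6* was 0.635, 1.22 and 1.60 FPKM in P1 to P3, 3.32 and 4.46 in P4 and P5, and 4.002 in P6, and *Tfdp2* was 4.31, 5.92, 6.94, 13.5, 16.9 and 18.3 FPKM. Both were thus higher in P4 and P5, as was *Ccnd1*, but unlike *Ccnd1* they were also high in P6. *Cdk4*, the other cyclin D-dependent kinase, was nearly flat at 61.9 to 72.6 FPKM.

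The D cyclins differed among themselves. *Ccnd3* was the most abundant in every population, at 72.4 to 88.3 FPKM in P1 to P3 and 99.5 to 114 in P4 to P6. *Ccnd2* was 30.9 to 33.7 FPKM in P1 to P5 and 11.6 in P6. The sum of the 3 D cyclins was 115, 131 and 129 FPKM in P1 to P3, 187 and 191 in P4 and P5, and 140 in P6, and *Ccnd1* made up 31.0% of it in P5, 26.3% in P4, 17.4% in P3 and 6.71% to 10.4% in P1, P2 and P6. *Myc*, a growth-promoting transcription factor that is also an immediate-early gene, was highest in P1 and lowest in P6, at 223, 206 and 200 FPKM in P1 to P3, 106 and 69.9 in P4 and P5, and 22.8 in P6, where with *Ccnd2* and *E2f3* it was 1 of 3 genes of the list called lower. No gene of this list was called higher in P6.

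The CDK inhibitors of the list split. *Cdkn1c*, which encodes p57, was 19.7, 22.1 and 15.1 FPKM in P1 to P3, 6.99 and 3.69 in P4 and P5, and 6.32 in P6, and *Cdkn2c*, which encodes p18, ran opposite, at 9.06, 8.75, 10.3, 26.1, 26.5 and 28.9 FPKM. CD105+ cells were thus higher for *Cdkn1c* and lower for *Cdkn2c* at both levels of ALDH activity. Of the 6 inhibitors, these 2 passed the 2-fold rule in P2 against P4 and in P3 against P5. Of all genes, 6.04% were higher and 8.50% lower in P2 against P4, and 8.65% and 6.79% in P3 against P5. *Cdkn2b*, which encodes p15, was 11.5 to 17.0 FPKM in P2 to P5 but 5.34 in P1 and 3.88 in P6. It was the 1 inhibitor of 6 called in P1 against P2, against 5.46% of all genes lower. *Cdkn2a*, which encodes p16 and p19ARF, was 1.18 to 2.91 FPKM in P1 to P5 and 0.0417 in P6, a level near that of a single read, and *Cdkn1b*, which encodes p27, was 20.6 to 30.6 FPKM in all 6. In P6 against the mean of the others, 3 of 6 inhibitors were lower, *Cdkn1c*, *Cdkn2a* and *Cdkn2b*, and none was higher. Of all genes, 10.3% were lower and 13.8% higher there. The median log2 ratio of the list was -0.47 against 0.09 for all genes.

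Since *Cdkn1a* is a p53 target and also responds to stress, 29 other p53 target genes and 22 immediate-early and dissociation genes were read beside it. In P2 against P4, where *Cdkn1a* was 1.54 times higher in P2 (1.44 to 1.64), 5 of 28 targets were lower in P2 and none was higher, against 8.50% of all genes lower and 6.04% higher (median log2 ratio, -0.14; all genes, -0.08). The 5 were *Pmaip1*, *Eda2r*, *Tnfrsf10b*, *Psrc1* and *Gtse1*, of which *Gtse1* and *Psrc1* also act in mitosis. *Pmaip1*, a proapoptotic BH3-only gene, was 0.793, 1.10 and 5.37 FPKM in P1 to P3, 12.7 and 17.1 in P4 and P5, and 4.75 in P6, and *Eda2r*, a receptor of the TNF receptor family, was 2.44, 4.96, 7.33, 11.3, 17.1 and 10.97 FPKM. *Gadd45a*, a stress-induced growth arrest gene, was 99.1, 76.9, 91.8, 51.2, 34.1 and 15.9 FPKM from P1 to P6, so it was higher in CD105+ cells as *Cdkn1a* was. *Ddit4*, a stress-induced inhibitor of mTORC1, was 29.0 to 62.3 FPKM in P1 to P5 and 10.1 in P6, *Btg2*, an antiproliferative gene that is also immediate-early, was 291 to 418 FPKM, and *Perp*, a gene of epithelial junctions, was 14.8 FPKM in P6 and at most 0.422 elsewhere, where it was listed at 0 in P2.

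For the other comparisons, the calls of the p53 list are given beside the share of all genes called in that direction. In P1 against P2, *Eda2r* of 27 was lower (all genes, 5.46%), in P2 against P3, *Pmaip1* of 27 was lower (3.39%), and in P4 against P5, *Gtse1* of 28 was higher (4.75%). In P3 against P5, *Gadd45a* of 27 was higher in P3, as *Cdkn1a* was by 1.46 times (1.37 to 1.56), and *Pmaip1*, *Eda2r* and *Tnfrsf10b* were lower (8.65% and 6.79%). In P6, 4 of 29 were higher, *Plk3*, *Tnfrsf10b*, *Perp* and *Psrc1*, and *Gadd45a* and *Ddit4* were lower (13.8% and 10.3%), where *Cdkn1a* was 0.729 of the mean of the others (0.679 to 0.784). Immediate-early genes were close to level as a list, with at most 3 of 22 called in any comparison and medians of -0.03 to 0.17 on the log2 scale. *Fosl1* was lower in P1 than in P2. *Egr2* was higher and *Ier3* lower in P2 than in P4 and in P3 than in P5, and *Myc* was also higher in P3 than in P5. In P6, *Hspa1a* and *Hspa1b* were called higher and *Myc* lower. The shares of all genes called are those given above. *Junb* was 1248 to 1961 FPKM and *Zfp36*, an mRNA-destabilizing protein, 1203 to 1980.1 FPKM, both lowest in P6. *Ier3* had the largest ratio of highest to lowest population in the list, at 34.4, 48.2 and 91.7 FPKM in P1 to P3, 304 and 384 in P4 and P5, and 294 in P6. *Fosl1*, the AP-1 subunit FRA1, was 0.411 to 1.49 FPKM.

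Genes with patterns most like 3 of the members were sought among 12751 genes of at least 1 FPKM in some population, by Pearson's r over the 6 populations. For *Mki67* these were *Kif22* (0.9974), *Knstrn* (0.9973), *Ccna2* (0.9965), *Cenpf* (0.9955) and *Ect2* (0.9955). *Kif22*, a chromosome-binding kinesin, was 0.944, 0.851 and 0.575 FPKM in P1 to P3, 2.88 and 1.04 in P4 and P5, and 4.53 in P6. An r of at least 0.95 with *Mki67* was reached by 139 genes (1.09%), of which 29 were among the mitosis list and the members. For *Ccnd1* the nearest was *Rdh10* (0.9942), the retinol dehydrogenase of the first step of retinoic acid synthesis, at 33.9, 31.2 and 64.2 FPKM in P1 to P3, 112 and 149 in P4 and P5, and 40.8 in P6, followed by *AU019823*, *Pde1a*, *Zfp60* and *Gm5820* (0.986 to 0.9908). For *Cdkn1a* they were *Cox11*, *Impdh1*, *Tesk2*, *Meox2* and *Ginm1* (0.9934 to 0.9961). With 6 points such values are reached by many genes, at least 0.95 by 101 (0.792%) for *Ccnd1* and 163 (1.28%) for *Cdkn1a*. Pearson's r does not measure the size of a difference, and some of these genes were nearly flat. *AU019823* was 6.22 to 7.34 FPKM, *Pde1a* 11.8 to 15.3 and *Ginm1* 47.8 to 54.2, while *Meox2* was 0.101 to 4.49. With a pseudocount of 1, the top 5 kept 4 genes for *Mki67*, 4 for *Ccnd1* and 3 for *Cdkn1a*.

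Transcripts of other cell types were not evenly spread over the populations and moved in part with the mitotic genes. The 15 pancreatic acinar markers summed to 1369.6 FPKM in P4 and 1989.7 in P6, the libraries with the highest mitotic levels, and to 4.63 to 256 in the others, with *Amy2a5*, an amylase, at 433 and 707 FPKM in P4 and P6 and at 0.782 to 75.8 elsewhere. The 9 mesothelial markers summed to 73.0 to 148 FPKM in CD105+ cells, 933 and 757 in P4 and P5, and 2938 in P6. Single markers differed unequally between P4 and P5. *Msln* was 6.86 FPKM in P4 and 2.31 in P5, and the keratin genes *Krt18* and *Krt8* were 1.49 and 0.378, and 2.04 and 1.08. *Upk1b* was 43.5 and 26.6 FPKM, and *Upk3b*, *Krt19* and *Lrrn4* were also higher in P4. *Wt1*, at 149 and 197 FPKM, and *Bnc1* were lower in P4. The 15 leukocyte markers measured summed to 24.02 to 39.1 FPKM in CD105+ cells, 18.7 and 14.4 in P4 and P5, and 51.7 in P6. *Lyz2* was the most abundant of them, at 7.74 to 26.6 FPKM, and the list median was 0.312 FPKM in P4, 0.340 in P5 and 0.602 to 1.37 in the others. The CD45 gene *Ptprc* was 0.312 FPKM in P4, 0.186 in P5 and at most 0.755 in any library. The macrophage gene *Cd68* ran otherwise, at 2.20 FPKM in P4, 2.67 in P5 and 6.50 in P6 against 0.858 to 1.89 in CD105+ cells. *Csf1r*, also of macrophages, was 11.6 FPKM in P6 and 0.763 to 1.66 in the others. The 10 endothelial markers summed to 55.9 to 517 FPKM, with P1 highest through *Ly6c1*, which fibroblasts also express, while *Pecam1* and *Cdh5* were below 1 FPKM in all 6 libraries. Of the same list, *Kdr* was 46.9 FPKM in P6, 3.30 in P4 and 0.139 to 1.46 elsewhere, and *Esam* was 62.0 in P6, 15.1 in P4, 9.55 in P5 and 0.274 to 1.17 in CD105+ cells. The 6 erythroid markers measured summed to 44.7 to 174 FPKM, with P6 highest and P4 at 56.2. The part of the acinar, mesothelial, macrophage and endothelial transcripts in the mitotic levels of P4 and P6 was not tested.

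**Figure D4:**
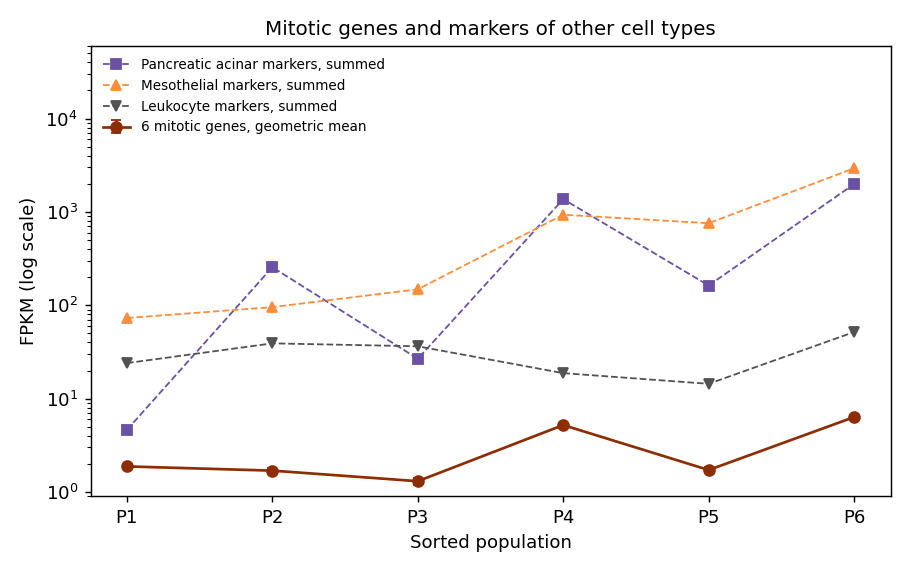
Geometric mean FPKM of the 6 mitotic genes (circles, with the 95% interval of counting error) and summed FPKM of marker genes of 3 other cell types (y axis, log scale) in P1 to P6 (x axis), 1 library each. The mitotic mean peaks in P4 (5.21) and P6 (6.35) together with the acinar sum (1369.6 and 1989.7). The leukocyte sum is below that of P1 to P3 in P4 (18.7) and is the highest of all in P6 (51.7).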

How the data were processed

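RNA-seq values were analyzed for 6 sorted omental populations, 1 library each. The authors deposited FPKM values per gene; TopHat2 2.0.7, Cufflinks 2.1.1 and the build mm10 are named in the submitters' processing notes. The strand of counting and any normalization between libraries are not given in the sources used here. Rows that repeated a symbol (495 per library) were summed. A value of exactly 0 may be a failed estimate, since *Col3a1*, an abundant collagen gene, was listed at 0 in P2 and at 2100.2 to 3389.6 FPKM elsewhere.

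Depth was estimated from the steps between low FPKM values, since 53.05% to 58.8% of them per library lay within 0.05 of a whole read, against 10% by chance; too few came out whole for a count test. Reads of a gene were estimated with an assumed fragment length of 200 nt and the shortest GENCODE M21 protein-coding transcript of at least 800 nt, and 95% intervals on ratios were computed from them on a log scale. They cover counting error only. The computation was tested on simulated data (Python 3.11.15, numpy 2.4.6, pandas 2.3.3).

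A gene was called at 2-fold with at least 0.5 FPKM on the higher side. List medians used log2(FPKM + 0.1), which understates changes of low genes, and the geometric mean used a pseudocount of 0.01. Genes named were the 10 members, from each pathway list the 3 of highest FPKM and the 3 with the largest ratio of highest to lowest population, the top gene of each cell type list, and the 5 of most similar pattern to *Mki67*, *Ccnd1* and *Cdkn1a*. Others, such as those that complete a short list of calls, were named after their values were seen. The members and lists were chosen with earlier results of these data known. Alternatives were 3 scalings between libraries, other FPKM minimums, fold thresholds and pseudocounts, and a mean without P4, the last chosen after seeing the data.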

Additional observations from a re-analysis of the deposited data

How the results depend on the processing

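No paired analysis was possible because a population had only 1 library. For calls of the 10 genes, 41 of 49 alternatives stayed within 1.5 times the count given. That tally counts calls only and ignores which genes were called and in which direction. Scaling to *Gapdh* left 1 call in P3 against P5, but of *Cdkn1a* higher in place of *Ccnd1* lower. In P2 against P4 it removed *Top2a* and *Ccna2* and added *Cdkn1a*, in the other direction. With a threshold of 3-fold, calls fell to 0 in P2 against P3, 2 in P4 against P5 (*Ccnb1* and *Birc5*), 4 in P2 against P4, 0 in P3 against P5 and 1 in P6 (*Mki67*). With 1.5-fold, 1 gene was called in P1 against P2 (*Birc5*) and 2 in P3 against P5 (*Cdk1* and *Ccnd1*), and median-of-ratios scaling also gave 1 in P1 against P2. FPKM minimums of 0.1 and 1 and a pseudocount of 0.1 left every such count within 1.5 times. The ratio of highest to lowest population of the mitotic mean was 4.44 to 4.93 over 6 alternatives, with P6 and P4 at the top in each; after scaling to *Gapdh* the lowest was P5, not P3. Scaling to *Gapdh* shifted the median of all genes by 0.47 (log2) in P2 against P4, 0.53 in P3 against P5, 0.11 in P4 against P5 and -0.11 in P6. Of 180 ratios of single genes under other scalings, 16 crossed 1, none of them a called ratio, and of 180 list medians, 18 crossed 0. With 1 library per population, the spread between mice is unknown, and no value here separates a population from its library.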
